A study of Rattus norvegicus with 6 samples.

Results

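The genes described here encode the enzymes that build nucleotides, the folate-bound carbon units and serine that feed them, and polyamines. They were listed by name, as 37 genes of these pathways, with earlier results of these data known, and each was read from the probe set annotated to that gene alone that had the highest mean log2 signal over 6 arrays. Of the 37 genes 34 had such a probe set, among 14217 genes with one on the array, and 32 passed the filter on dim signals, among 10143 genes tested. Prps2 and Hprt1 were the members below the filter. Paics, whose probe set carried several symbols, Impdh1 and Impdh2 were not analysed here.

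The cells were GH4C1, an established rat pituitary tumour line of the somatolactotroph kind. The R271W group, 3 cultures, received a lentiviral vector in which the PGK promoter drives POU1F1(R271W), a mutant form of a pituitary transcription factor that the series title calls dominant negative, followed by an IRES and EGFP. The control group, also 3 cultures, received a vector with EGFP alone under the same promoter. Both groups were therefore transduced, at a multiplicity of infection of 5 with polybrene, and both were kept in medium with horse and fetal calf serum for 4 days before RNA extraction. Each culture was hybridised to its own Affymetrix array. The replicates are labelled biological without further detail, and precision is limited by there being only 3 arrays a group. The p-values do not rest on the spread between these cultures alone. For each probe set limma moderates that spread towards a trend with intensity, fitted over all tested probe sets.

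Purine rings are built stepwise on phosphoribosyl pyrophosphate, and pyrimidine rings are made first and then joined to it. The folate cycle supplies formyl groups for purines and a methylene group for thymidylate, much of it drawn from serine. Polyamines are made from ornithine and decarboxylated S-adenosylmethionine, which links them to the methionine cycle. These enzymes are widely expressed and are best known for being high in proliferating cells.

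The genes that mark this line were bright in both groups. Gh1, growth hormone, had a signal of 6338 ± 867 in R271W cells and 6443 ± 348 in control cells (SD, n = 3 each), with overlapping arrays. Prl, prolactin, fell to 3175 ± 171 in R271W cells, against 4332 ± 188 in control cells (log2 -0.45, adjusted p = 0.00048), and Pou1f1 to 1836 ± 86.2 in R271W cells, against 2301 ± 90.1 in control cells (log2 -0.33, adjusted p = 0.00486). Both calls were lost when limma's variance was fitted without an intensity trend (adjusted p = 0.0583 for Prl and 0.107 for Pou1f1). Whether the Pou1f1 probe set also reads the vector's transcript was not tested, nor was the part of these lineage genes in the results that follow. Of 14 markers of other pituitary, stromal, endothelial, immune and glial cells 13 were measured, 3 were tested and 1 fell, the proteoglycan gene Dcn (1205 ± 37.1 in R271W cells and 2770.1 ± 90.4 in control cells). Summed over the measured markers the signal ran from 1283 to 1365 on R271W arrays and from 2788 to 2972 on control arrays. Without Dcn the sums overlapped (98.9 to 121.8 on R271W arrays, 104.6 to 118.3 on control arrays), and no other marker exceeded 56.6 on any array. In such bulk cultures fewer cells of a kind and less RNA per cell cannot be told apart.

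Many of the tested synthesis genes were lower in R271W cells and none was called higher. By limma, with p-values adjusted over all 18625 tested probe sets and a threshold of 0.05, 16 of 32 fell and 0 rose. Without the intensity trend of that test 6 of 32 fell, beside 285 of all 10143 genes that fell and 362 that rose. With the trend, 8.98% of all 10143 genes fell and 9.87% rose. Among 3536 genes with a mean signal of 200 or more, the range in which 25 of the synthesis genes lie, 19.7% fell and 11.2% rose with the trend. Of those 25 brighter synthesis genes 15 fell. At an unadjusted p under 0.05, 23 of the 32 were lower and 0 were higher. The share of all genes at this cutoff was not computed.

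Counted without a test, 29 of 32 read below 0 on the log2 scale, against 4456 of all 10143 genes and 1977 of the 3536 brighter ones. In 24 of the 32 all R271W arrays lay below all control arrays. This separation was seen in 16.6% of all genes and 30.7% of the brighter ones. The median log2 change was -0.29 for the 32 synthesis genes, 0.06 for all genes and -0.04 for the brighter genes. The changes were moderate, from -0.88 for Srm to 0.21 for Prps1. Taken per array and set against the mean of the control arrays, the median of the 32 genes was -0.33, -0.36 and -0.29 on R271W replicates 1, 2 and 3, where 29, 29 and 27 genes read below that mean. The control arrays had medians of 0.00, 0.00 and -0.02, near 0 by construction since their own mean was subtracted. Each R271W array was lower than each control array on this measure. The median of all genes was 0.07, 0.06 and 0.06 on R271W replicates 1, 2 and 3.

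**Figure D1:**
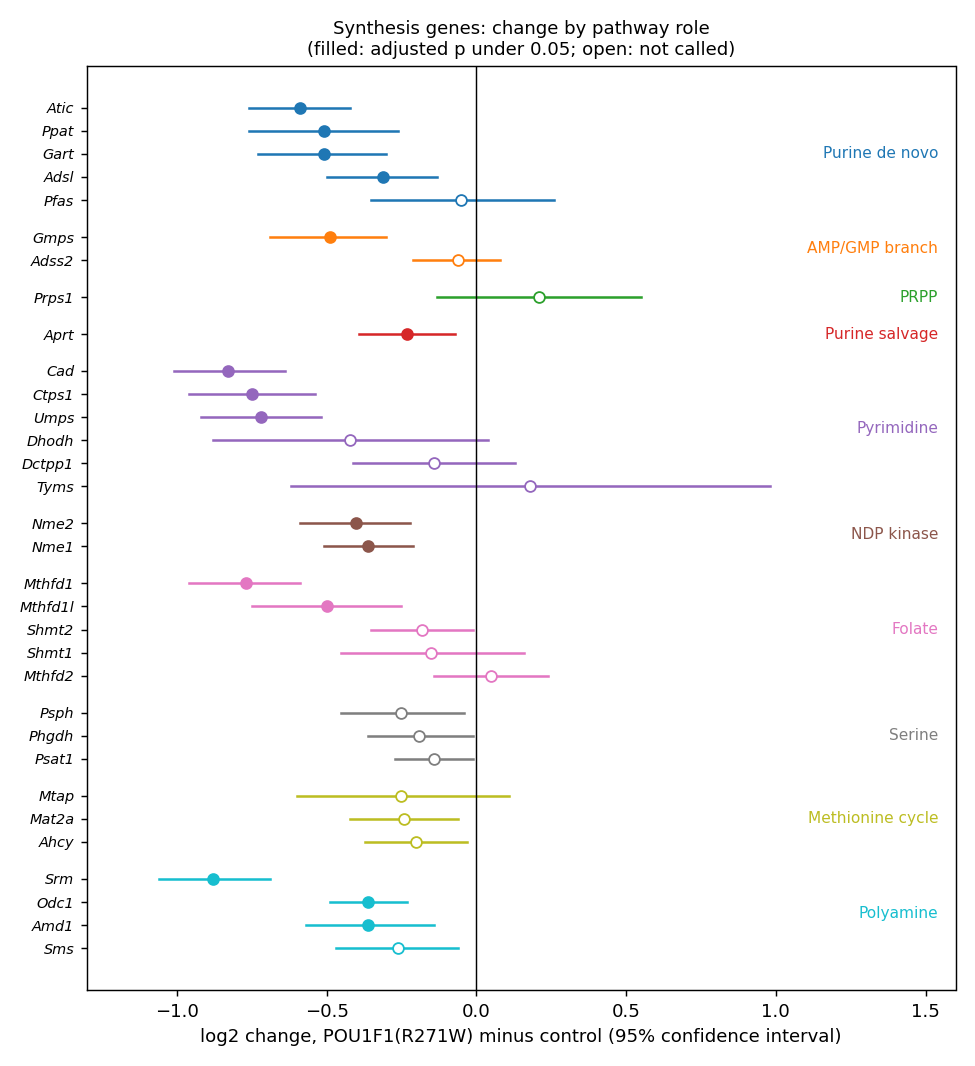
Log2 change in signal (x axis, R271W minus control) of the 32 tested synthesis genes (y axis), sorted by role, with 95% confidence intervals from limma; filled points passed the adjusted threshold. All 16 filled points lie left of 0, with Srm (-0.88) and Cad (-0.83) farthest, and none of the serine or methionine cycle genes is filled.

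How arrays are scaled bears on these counts. The deposited scaling gave 1001 genes that rose and 911 that fell, against 932 and 907 with quantile normalization, 691 and 1305 with 75th percentile centring and 441 and 2071 with median centring, which lowered the median of all genes to -0.14. The synthesis genes stayed below all genes in each case: their median was -0.24 against 0.00 with quantile normalization, -0.37 against -0.03 with 75th percentile centring and -0.49 against -0.14 with median centring, with 14, 23 and 24 members that fell. Array controls also differed: the log2 signal of the spiked hybridisation controls averaged 9.17 ± 0.113 on R271W arrays and 8.93 ± 0.118 on control arrays, and 3' over 5' signal of beta-actin was 1.96 ± 0.099 in R271W cells and 1.82 ± 0.00763 in control cells. Neither pair overlapped, while both GAPDH ratios did. So did the 3' over middle signal of beta-actin (1.34 ± 0.111 in R271W cells, 1.32 ± 0.0186 in control cells). The median signal of non-control probe sets did not overlap (26 ± 0.792 on R271W arrays, 22.7 ± 0.281 on control arrays). The part of these differences in the results was not tested.

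Promoter sequence was read for 31 of the 34 measured genes from RefSeq (assembly GRCr8, 250 bases before to 50 after the annotated start). No sequence was available for Umps and Mthfd1, which fell, or for Dhodh, which was not called. Matches outside this window were not sought. Shown are the 2 members that fell and whose window holds CACGTG, the E-box letters bound by MYC-family and related factors, and another gene, Shmt1, that holds 2 copies and was not called. Capitals mark CACGTG, which reads the same on both strands.

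Srm, chr5:164308752-164309051, plus strand: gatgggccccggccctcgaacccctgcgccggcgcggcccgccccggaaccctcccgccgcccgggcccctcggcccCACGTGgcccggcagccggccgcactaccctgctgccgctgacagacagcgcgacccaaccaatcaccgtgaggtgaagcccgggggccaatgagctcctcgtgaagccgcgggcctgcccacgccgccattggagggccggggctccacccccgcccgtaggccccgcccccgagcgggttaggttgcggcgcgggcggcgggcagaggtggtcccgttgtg

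Atic, chr9:80614061-80614360, plus strand: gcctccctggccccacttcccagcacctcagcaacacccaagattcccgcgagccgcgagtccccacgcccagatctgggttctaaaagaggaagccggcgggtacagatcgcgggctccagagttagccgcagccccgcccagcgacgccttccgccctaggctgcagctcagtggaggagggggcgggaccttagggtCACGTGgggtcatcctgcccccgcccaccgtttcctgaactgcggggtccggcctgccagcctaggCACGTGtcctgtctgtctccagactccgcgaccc

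Shmt1, chr10:45990292-45990591, minus strand: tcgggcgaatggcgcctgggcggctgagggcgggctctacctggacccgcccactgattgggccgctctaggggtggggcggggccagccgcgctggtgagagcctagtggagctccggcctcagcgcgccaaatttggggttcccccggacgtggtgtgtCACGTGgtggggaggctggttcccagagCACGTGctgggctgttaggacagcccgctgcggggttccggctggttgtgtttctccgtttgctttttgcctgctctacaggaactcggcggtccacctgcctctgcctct

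In Srm the motif begins 173 bases before the start, and Atic has a copy 50 bases before it and another at base 17 of the transcribed side. Shmt1 has its copies at 89 and 61 bases before the start. Adss2, also not called, holds the remaining match, 79 bases before its start. The letters were thus in 4 of 31 windows (12.9%), in 2 of 14 from genes that fell and in 2 of 15 from tested genes that were not called, against 6.42% of 33469 promoter windows in the table. TGATGNAA, the core of elements bound by C/EBP and ATF4 dimers, was in 0 of the 31 and in 3.98% of all windows. ATGNATA, the core of sites bound by POU1F1, was in 2 (Aprt, which fell, and Ahcy, not called), or 6.45%, and in 9.88% of all windows, with both strands searched. No match overlapped another motif. These are matches of letters and not measured sites.

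Pyrimidine synthesis held some of the largest decreases. Cad, the enzyme that carries out the first reactions of the pathway, had signals of 353.9, 360.6 and 319.9 in R271W cells, against 591.8, 610.9 and 632.7 in control cells. The groups were far apart, and Cad fell by 43.7% (adjusted p = 3.59e-05, log2 -0.83 with a 95% confidence interval of -1.01 to -0.64). Its other probe set, dimmer and not used by the selection, read 64.2, 65.5 and 65.2 in R271W cells, against 135.6, 129.7 and 158.3 in control cells, and also fell (log2 -1.12, adjusted p = 0.00025).

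Umps, which completes UMP, had signals of 341.7, 322.8 and 381.8 in R271W cells, against 606.1, 563.5 and 550.7 in control cells. All R271W values lay well below the controls, and Umps fell by 39.3% (log2 -0.72, interval -0.92 to -0.52, adjusted p = 0.000173). Ctps1, which makes CTP from UTP, had 267.2, 240.1 and 247.0 in R271W cells, against 434.3, 451.2 and 388.0 in control cells. It too was separated and fell by 40.7% (log2 -0.75, interval -0.96 to -0.54, adjusted p = 0.000191). Its other probe set lay near background (12.2 ± 4.95 in R271W cells, 10.6 ± 3.83 in control cells), was not tested, and pulled the mean over both probe sets to -0.29 (adjusted p = 0.405).

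The other pyrimidine genes were not called. Dhodh, the mitochondrial dehydrogenase between the Cad and Umps steps, was dim, at 53.8 ± 4.07 in R271W cells and 73.1 ± 17.9 in control cells, and its log2 change of -0.42 had an interval of -0.88 to 0.04. Tyms, thymidylate synthase, was near the filter (25.3 ± 6.67 in R271W cells, 22.2 ± 4.87 in control cells), and its interval of -0.62 to 0.98 leaves its change undetermined. Dctpp1, a pyrophosphatase that clears dCTP, read -0.14 (-0.41 to 0.13) with overlapping arrays. Among the nucleoside diphosphate kinases, which turn diphosphates into triphosphates, Nme1 fell to 934.8 ± 32.2 in R271W cells, against 1199.6 ± 34.1 in control cells (log2 -0.36, adjusted p = 0.00334). Nme2 fell to 2251 ± 300.0, against 2958 ± 125.0 in control cells (log2 -0.40, adjusted p = 0.0063). Nme1 and Nme2 are closely similar neighbours on chromosome 10, so their probe sets may share signal.

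**Figure D2:**
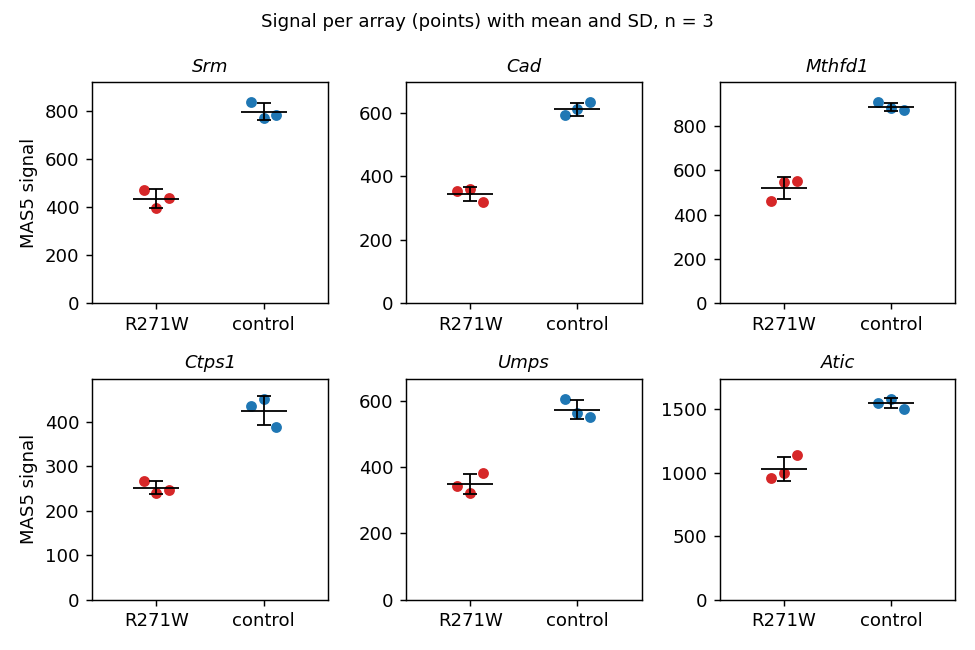
MAS5 signal (y axis, linear from 0) of the 6 synthesis genes with the largest decreases, in R271W cells (red) and control cells (blue); points are arrays, and bars are the mean ± SD (n = 3). In each gene the 3 R271W points lie below the 3 control points, as in Srm (394.8 to 472.6 in R271W cells, 769.8 to 835.1 in control cells).

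Of the 5 measured genes of purine ring synthesis 4 fell. Atic, the bifunctional enzyme of the last steps, had signals of 956.6, 994.6 and 1139 in R271W cells, against 1550.0, 1581 and 1503 in control cells. The groups did not approach each other, and Atic fell by 33.5% (log2 -0.59, interval -0.76 to -0.42, adjusted p = 0.000234). Ppat, the amidotransferase that commits the pathway, had 156.6, 188.0 and 196.4 in R271W cells, against 241.8, 270.5 and 254.3 in control cells. It was separated as well and fell by 29.7% (log2 -0.51, interval -0.76 to -0.26, adjusted p = 0.00923).

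Gart, which carries several of the middle activities on one protein, had signals of 327.6, 334.2 and 371.4 in R271W cells, against 442.2, 552.0 and 483.9 in control cells. With no overlap it fell by 29.9% (log2 -0.51, adjusted p = 0.00357). The second Gart probe set fell too (log2 -0.42, adjusted p = 0.00993). Adsl, which acts both in ring synthesis and on the way to AMP, had 445.9, 438.6 and 454.9 in R271W cells, against 582.0, 503.6 and 580.7 in control cells. The fall was smaller (log2 -0.31, interval -0.50 to -0.13, adjusted p = 0.0259). Pfas, the amidotransferase between the Gart activities, had 195.4, 133.1 and 173.4 in R271W cells, against 173.7, 165.4 and 173.6 in control cells. Its arrays overlapped, and the log2 change was -0.05 (interval -0.35 to 0.26).

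After the ring is closed the path divides towards AMP and GMP. Gmps, GMP synthetase, had signals of 387.8, 385.5 and 344.6 in R271W cells, against 556.5, 490.2 and 527.7 in control cells. It fell by 29.0% without overlap (log2 -0.49, interval -0.69 to -0.30, adjusted p = 0.00225). A dimmer probe set of Gmps gave -0.55 (adjusted p = 0.00324), and with a still dimmer one included the mean over probe sets did not pass (adjusted p = 0.0639). On the AMP side, Adss2, adenylosuccinate synthase, had 1003 ± 15.1 in R271W cells and 1049.6 ± 2.56 in control cells. That is a log2 change of -0.06, whose interval of -0.21 to 0.08 does not reach the Gmps estimate, although the difference between these genes was not tested.

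The supply and recycling of purine precursors was measured by few probe sets. Prps1, which makes phosphoribosyl pyrophosphate, had signals of 86.7, 95.2 and 90.9 in R271W cells, against 86.8, 79.2 and 70.7 in control cells. R271W replicate 1 lay just under the highest control, and the log2 change of 0.21 did not pass (interval -0.13 to 0.55, adjusted p = 0.421). Prps2, its paralogue, had signals of 1.77, 11.3 and 1.8 in R271W cells, against 1.51, 1.44 and 10.3 in control cells, too dim to test. Aprt, which salvages adenine, fell to 1638 ± 134.0 in R271W cells, against 1917 ± 5.22 in control cells (log2 -0.23, adjusted p = 0.0459). The Aprt call was lost under 9 of 19 alternative settings, among them quantile normalization, where the log2 change was -0.09. Hprt1, which salvages hypoxanthine and guanine, was at or near background on every array (14.8, 0.686 and 22.1 in R271W cells, 12.4, 0.795 and 1.35 in control cells), so its level could not be compared.

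**Figure D3:**
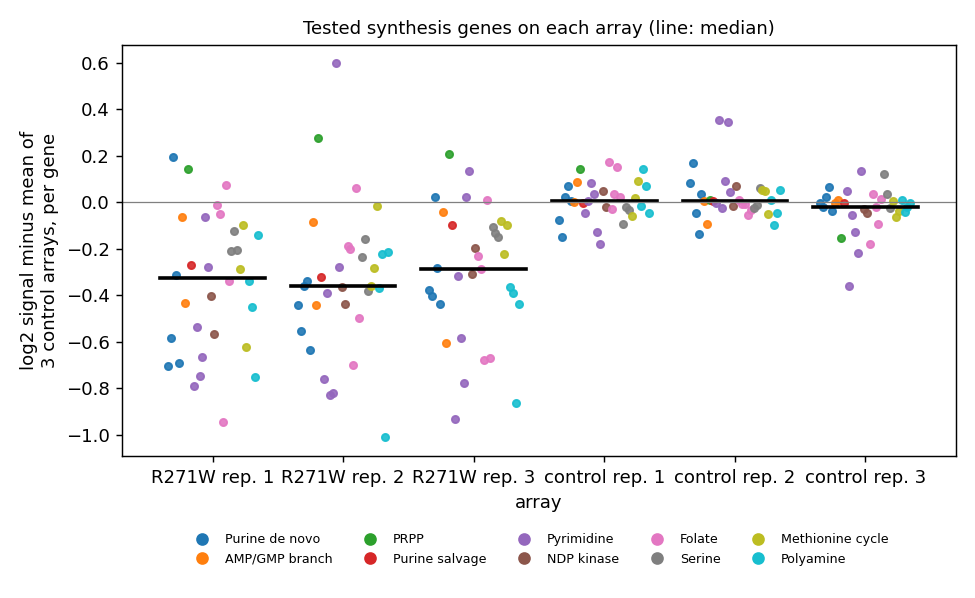
Log2 signal minus the gene's mean over the 3 control arrays (y axis) for the 32 tested synthesis genes on each array (x axis), coloured by role; black lines are medians. The R271W medians lie at -0.33, -0.36 and -0.29, and the control medians between -0.02 and 0.00.

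Within the folate cycle 2 of 5 genes fell, Mthfd1 and Mthfd1l. Mthfd1, the trifunctional cytosolic enzyme that interconverts one-carbon folates, had signals of 460.9, 545.8 and 553.2 in R271W cells, against 907.0, 880.8 and 872.9 in control cells. With the highest R271W value far under the lowest control, Mthfd1 fell by 41.6% (log2 -0.77, interval -0.96 to -0.59, adjusted p = 6.01e-05). Mthfd1l, the mitochondrial enzyme that releases formate to the cytosol, had 183.5, 164.1 and 145.6 in R271W cells, against 235.3, 226.5 and 234.0 in control cells. It was separated and fell by 29.4% (log2 -0.50, interval -0.75 to -0.25, adjusted p = 0.00966).

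Mthfd2, the mitochondrial dehydrogenase upstream of Mthfd1l, had signals of 577.5, 571.2 and 551.8 in R271W cells, against 608.7, 527.5 and 512.9 in control cells. The arrays overlapped, and the log2 change was 0.05 with an interval of -0.14 to 0.24, which did not reach the estimates for Mthfd1 or Mthfd1l. The difference between these genes was not tested. Of the serine hydroxymethyltransferases, which pass a carbon from serine to folate, the mitochondrial Shmt2 read -0.18 (interval -0.35 to -0.01, adjusted p = 0.139) with arrays that did not overlap. The cytosolic Shmt1 read -0.15 (interval -0.45 to 0.16, adjusted p = 0.545) with arrays that did.

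The 3 genes of serine synthesis from glycolytic 3-phosphoglycerate did not pass. Phgdh, the first enzyme, had 806.0 ± 38.6 in R271W cells and 917.9 ± 71.7 in control cells (log2 -0.19, interval -0.36 to -0.01, adjusted p = 0.141). Psat1, the aminotransferase, had 2457 ± 30.2 in R271W cells and 2708 ± 57.7 in control cells (log2 -0.14, interval -0.27 to -0.01, adjusted p = 0.142). Psph, the phosphatase that yields serine, had 327.8 ± 26.8 in R271W cells and 388.3 ± 14.3 in control cells (log2 -0.25, interval -0.45 to -0.04, adjusted p = 0.0952). In all 3 genes every R271W array lay under every control array. Of all genes with a mean signal of 200 or more, 30.7% were separated in this way. The intervals of the 3 serine genes exclude decreases as large as the estimate for Mthfd1l (-0.50) but overlap its interval of -0.75 to -0.25. The differences from Mthfd1l were not tested. Scaling moved the serine gene values. With 75th percentile centring all 3 passed (adjusted p = 0.0366 to 0.0486). Under quantile normalization Phgdh read -0.09 (adjusted p = 0.459), Psat1 read -0.03 (0.762) and none of the 3 passed.

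Polyamine synthesis included the largest decrease among the members. Srm, spermidine synthase, had signals of 472.6, 394.8 and 438.0 in R271W cells, against 835.1, 769.8 and 784.6 in control cells. All R271W values lay far below the controls, and Srm fell by 45.5% (log2 -0.88, interval -1.06 to -0.69, adjusted p = 2.72e-05). Odc1, ornithine decarboxylase, which begins the pathway, had 2108, 2065 and 2076 in R271W cells, against 2639, 2684 and 2688 in control cells. Its arrays were tight within groups, and it fell by 22.0% (log2 -0.36, interval -0.49 to -0.23, adjusted p = 0.00134).

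Amd1, which decarboxylates S-adenosylmethionine to give the aminopropyl donor, had 292.7, 342.3 and 305.7 in R271W cells, against 441.8, 373.8 and 388.2 in control cells. It fell by 21.8% (log2 -0.36, interval -0.57 to -0.14, adjusted p = 0.0285). Sms, spermine synthase, read -0.26 without passing (448.5 ± 47.0 in R271W cells, 537.1 ± 18.0 in control cells, adjusted p = 0.0718), while its dimmer probe set fell (248.9 ± 12.9 in R271W cells, 334.0 ± 65.0 in control cells, log2 -0.41, adjusted p = 0.0442). In both Sms probe sets the R271W arrays lay below the controls.

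The methionine cycle genes were not called on their brightest probe sets. Mat2a, which makes S-adenosylmethionine, had 970.0, 921.7 and 1118 in R271W cells, against 1134, 1228 and 1188 in control cells. The groups came close without overlapping, and the log2 change was -0.24 (interval -0.42 to -0.06, adjusted p = 0.0633). Another Mat2a probe set fell, with 306.5, 265.6 and 262.2 in R271W cells, against 395.3, 480.0 and 391.7 in control cells (log2 -0.60, adjusted p = 0.00199), and a dim one read -1.57 (adjusted p = 0.0572). Ahcy, which hydrolyses S-adenosylhomocysteine, read -0.20 (interval -0.37 to -0.03, adjusted p = 0.111). Mtap, which recycles the methylthioadenosine left by polyamine synthesis, read -0.25 (interval -0.60 to 0.11, adjusted p = 0.358). Further Mtap probe sets gave -0.41 and -0.59 without passing.

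Set side by side, 6 of 9 tested purine genes fell (median log2 change -0.31), as did 5 of 8 pyrimidine and nucleoside diphosphate kinase genes (-0.41), 2 of 5 folate genes (-0.18), 0 of 3 serine genes (-0.19), 0 of 3 methionine cycle genes (-0.24) and 3 of 4 polyamine genes (-0.36). The serine genes nevertheless had 3 of 3 below 0, and a difference between these small groups was not tested. Beyond the brightest probe sets, 8 other probe sets of 6 members were tested. All 8 of them read below 0, a count not made over all probe sets, and 5 fell, against 7.22% of all tested probe sets. They measure the same RNA and are not independent samples.

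**Figure D4:**
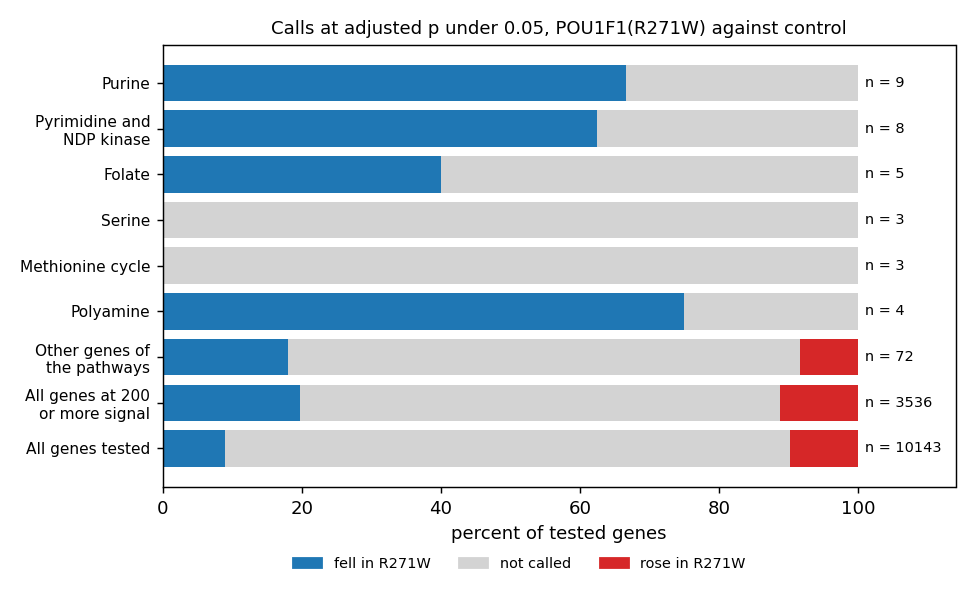
Percent of tested genes (x axis) that fell (blue), were not called (grey) or rose (red) in R271W cells, by pathway group and, for comparison, in the other genes of these pathways, all genes at a signal of 200 or more and all genes tested; n is the number tested. Purine (6 of 9), pyrimidine with NDP kinase (5 of 8) and polyamine genes (3 of 4) have the longest blue bars, against 19.7% of the brighter genes.

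Of the 16 decreases, those of Cad, Umps, Atic, Mthfd1 and Srm passed under all 19 alternative settings, with a highest adjusted p of 0.0419. With eBayes fitted without its intensity trend 6 members fell, those 5 and Ctps1, and the other 10 had adjusted p values from 0.0567 (Gmps) to 0.233 (Aprt). The calls of Aprt, Adsl and Amd1 were the least secure: Aprt lost its call without any 1 of the controls (adjusted p = 0.115, 0.123 and 0.116 for replicates 1, 2 and 3), without R271W replicate 1 (0.12) or 2 (0.155), and under quantile normalization (0.334), no filter (0.0857) or a replicate block (0.091). Adsl lost it under quantile normalization (0.0698) or when control replicate 1 (0.101) or 3 (0.103) or R271W replicate 1 (0.0575) or 2 (0.0794) was left out. Amd1 lost it under a replicate block (0.058) or when control replicate 1 (0.124) or 3 (0.0612) or R271W replicate 1 (0.0903) or 3 (0.057) was left out. Among members not called, Mat2a passed under 7 of the 19 settings, one of them without R271W replicate 3 (adjusted p = 0.0086), and Sms under 5, one of them without R271W replicate 1 (0.0488).

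Other genes of the same pathways moved in both directions. Of 97 listed, 72 were tested, 13 fell (18.1%) and 6 rose, with a median log2 change of -0.04. Of all genes 8.98% fell and 9.87% rose, and of the brighter ones 19.7% and 11.2%, so the share that fell lay between these backgrounds, against which the counts by list below are also to be read. Without the intensity trend the calls of Adk, Ak4, Uck2, Nme3, Slc19a1, Slc1a5 and Eif5a below were lost, at adjusted p values from 0.0518 (Uck2) to 0.17 (Nme3). In pyrimidine salvage, Upp1, uridine phosphorylase, fell to 348.9 ± 34.9 in R271W cells, against 827.0 ± 13.9 in control cells (log2 -1.25, adjusted p = 1.5e-06), and Uck2, a uridine-cytidine kinase, to 85.6 ± 18.3 in R271W cells, against 157.3 ± 18.3 in control cells (log2 -0.89, adjusted p = 0.00276). Nme3, another nucleoside diphosphate kinase gene, rose (log2 0.51, adjusted p = 0.0396), a call lost when control replicate 2 (0.0944) or 3 (0.149) or R271W replicate 1 (0.132) or 2 (0.151) was left out and under quantile normalization (0.0694), 75th percentile centring (0.0701) or median centring (0.169). Of 20 tested genes in this list, which includes the deoxynucleotide enzymes, 2 fell and 1 rose. Rrm1, a ribonucleotide reductase subunit, and Dtymk, thymidylate kinase, read 0.08 and -0.01 without passing.

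Among other purine genes 4 of 15 fell and 2 rose. Adss1, the muscle-type adenylosuccinate synthase, rose to 91.5 ± 9.53 in R271W cells, against 41.3 ± 8.11 in control cells (log2 1.16, adjusted p = 0.00181), and Pnp, purine nucleoside phosphorylase, to 109.3 ± 4.03 in R271W cells, against 68 ± 4.38 in control cells (log2 0.69, adjusted p = 0.00781). Another Adss1 probe set read 0.39 without passing, and the mean over probe sets did not pass (log2 0.77, adjusted p = 0.0765). Adk, adenosine kinase, fell (log2 -0.34, adjusted p = 0.0107), though its other probe set did not pass (-0.15) and the call was lost without R271W replicate 2 (0.0529). Ak4, a mitochondrial adenylate kinase, had a log2 change of -0.42 (adjusted p = 0.0335), which passed only without R271W replicate 3 when single arrays were left out (adjusted p = 0.05 to 0.125 without any of the others), and the mean over probe sets read 0.31 without passing.

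In the folate and glycine list 3 of 11 fell and 0 rose. They were Gcsh, the carrier protein of glycine cleavage (1009.9 ± 85.2 in R271W cells, 1542 ± 47.8 in control cells, log2 -0.61, adjusted p = 0.00015), Fpgs, which adds glutamates to folate and keeps it in the cell (55.1 ± 9.13 in R271W cells, 109.0 ± 20.6 in control cells, log2 -0.98, adjusted p = 0.00416), and Slc19a1, the reduced folate carrier (log2 -0.84, adjusted p = 0.0235). With the mean over probe sets Fpgs read 0.11 without passing. The Slc19a1 call was lost when control replicate 2 (0.0743) or 3 (0.0973) or R271W replicate 1 (0.0618) or 2 (0.0831) was left out. In the serine and methionine list 1 of 11 fell, Slc1a5, a neutral amino acid transporter (633.4 ± 47.4 in R271W cells, 1042 ± 171.0 in control cells, log2 -0.71, adjusted p = 0.0006), and 1 rose, Mat2b, the regulatory subunit that pairs with the Mat2a enzyme (516.7 ± 43.5 in R271W cells, 242.7 ± 13.8 in control cells, log2 1.09, adjusted p = 1.11e-05).

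Around the polyamine pathway 3 of 15 fell and 2 rose. Paox, an oxidase that returns acetylated polyamines to the pool, fell to 319.3 ± 21.3 in R271W cells, against 581.2 ± 26.5 in control cells (log2 -0.87, adjusted p = 3.34e-05). Oat, which interconverts ornithine and glutamate semialdehyde, fell to 476.2 ± 16.8, against 817.8 ± 60.8 in control cells (log2 -0.78, adjusted p = 4.14e-05). Arg1, the arginase that releases ornithine, rose to 249.7 ± 19.6 in R271W cells, against 116.9 ± 4.66 in control cells (log2 1.09, adjusted p = 4.14e-05). Eif5a, the translation factor that carries the spermidine-derived residue hypusine, fell (log2 -0.28, adjusted p = 0.0103), a call that quantile normalization ended (-0.15, adjusted p = 0.0794). Of the antizyme genes, whose products restrain ornithine decarboxylase, Oaz1 read -0.02 without passing, at 4107 in R271W cells and 4159 in control cells. Oaz2 rose to 351.8 ± 21.9 in R271W cells, against 275.9 ± 11.6 in control cells (log2 0.35, adjusted p = 0.0225). The Oaz2 call was not followed under the alternative settings.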

How the data were processed

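RNA was measured on 6 Affymetrix rat arrays. The authors deposited linear intensity values, summarised to 1 signal for each probe set by MAS5 according to the submitters' processing notes; detection calls and settings were not given in the sources used here. Each array had a mean of 100.0 after trimming 2% at each end. Such scaling ties dim signals to bright ones. Each array's signals were used as deposited, on the log2 scale.

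Probe sets were named from the platform annotation, updated by Entrez ID through RefSeq (GRCr8). Of 31042 non-control probe sets 20826 had 1 symbol. The 18625 whose mean log2 signal reached the 40th percentile (11.2 as a signal) were tested two-sided by limma 3.58.1 (R 4.3.3; eBayes with an intensity trend after lmFit), with Benjamini-Hochberg adjustment over all of them and 95% intervals. The test was also run on simulated data whose spread depended on intensity alone. That run cannot check the intensity trend on the real data. Members, lists and motifs were chosen with earlier results of these data known. Every called member and the smallest p of each group got full values, and of each other list up to 4 called genes. Ampd2 and Nt5e, also called lower, and Oaz2, called higher, fell outside that rule. Rrm1, Dtymk, Oaz1 and Oaz2 were named after their values were seen. Alternatives were scaling, filter, floor or offset at a signal of 3.72, variance model, array weights, a replicate block, the summary of probe sets, and leaving out each array. The background of genes at 200 or more was added after seeing the data. Figures used matplotlib 3.10.9.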

Additional observations from a re-analysis of the deposited data

How the results depend on the processing

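Of the 16 members that fell, 5 passed under all 19 alternatives, 7 lost the call under 1 and 4 under more, and 0 changed sign. Of the 16 not called, 8 passed under some alternative, each of them lower in R271W cells. Adss2, Ahcy, Phgdh, Psat1, Psph and Shmt2 passed only under median or 75th percentile centring. Those settings lowered the median of all genes, to -0.14 and -0.03. Mat2a and Sms also passed under other settings. Without the intensity trend 6 members fell, with 634 probe sets higher and 431 lower (362 and 285 genes). Under median centring 730 probe sets rose and 3132 fell (441 and 2071 genes). The median signal was higher on R271W arrays (26) than on control arrays (22.7), and that centring removes this difference. The source of the difference was not tested. Among genes at a signal of 200 or more 397 rose. Leaving out 1 array gave 13 to 16 members that fell, 999 to 1350 probe sets that rose, 947 to 1330 that fell, 644 to 842 genes that rose and 656 to 930 that fell; the lowest counts of rises came without R271W replicate 2.

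Among values that were not called, Adss2 read 0.05 under quantile normalization. Tyms read -0.02 there, -0.01 under median centring and -0.02 without R271W replicate 2. Mthfd2 read -0.15 under median centring and -0.03 under 75th percentile centring, and with 1 array left out Pfas ranged from -0.17 to 0.11 (0.11 without R271W replicate 2), Gh1 from -0.14 to 0.06 (0.01 without control replicate 2, 0.06 without R271W replicate 1) and Tyms up to 0.36. Of called genes, Ak4 and Fpgs turned sign, to 0.31 and 0.11 with the mean over probe sets, since each has a dim probe set of opposite sign. Without the filter the purine salvage median was 0.56, since the dim Hprt1 enters it. Apart from these constructions the cause was not tested.

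With the replicate number as a block 14 members fell, and Aprt and Amd1 lost their calls. The labels do not say whether equal numbers mark paired cultures. Deviations of same-numbered arrays correlated at -0.00165, 0.0101 and -0.0201, so no pairing by number was visible. Signal over background limits Prps2 and Hprt1, below the filter, and Tyms and Dhodh, whose intervals are wide.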
